A study of Homo sapiens with 4 samples.

Results

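Aminoacyl-tRNA synthetases load each transfer RNA with its amino acid. The 36 genes described here were chosen by symbol, 20 for cytosolic and 16 for mitochondrial enzymes, out of 25343 genes in each of 2 deposited tables, and all 36 were found. RNA sequencing had been run on 4 libraries, 1 per group. C4-2B ENZR, a prostate cancer line resistant to the antiandrogen enzalutamide, was grown in RPMI medium with 10% serum and 20 µM of the drug, and LNCaP, an androgen-responsive prostate cancer line, in the same medium without it. Each line carried, from a lentivirus with antibiotic selection, a short hairpin RNA that was either non-targeting or directed at coding sequence of MAOA, the gene for the mitochondrial enzyme monoamine oxidase A. From the labels it is unknown if a single MAOA hairpin served both lines, or if any group is 1 clone.

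In the cytosol the synthetases feed the ribosomes that translate nuclear messages, and 8 of the 20 genes encode enzymes that assemble with the scaffold proteins AIMP1, AIMP2 and EEF1E1 into a multisynthetase complex. A separate set, encoded in the nucleus and imported, charges the tRNAs used for proteins made from mitochondrial DNA. GARS and KARS encode both forms and are counted as cytosolic, and QARS is cytosolic because mitochondria make glutaminyl-tRNA by way of EARS2. When amino acids run short, the transcription factor ATF4 acts through a DNA element, the amino acid response element, that is known from several cytosolic synthetase genes.

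That element, searched as TGATGNAA on both strands, was looked for in RefSeq windows of 300 bases (250 before and 50 after an annotated start, GRCh38.p14), a feature the choice of genes did not use and that was picked after the ratios below had been seen. Windows were found for 16 cytosolic and 14 mitochondrial genes, and DARS, LARS, VARS, YARS, AARS2 and VARS2 were not searched. The element occurred in 7 of the 16 cytosolic and 1 of the 14 mitochondrial genes. It occurred in 2.60% of 9623 tested genes with a window and 4.46% of all 27305 genes with a window. The form TGATGCAA (TTGCATCA) occurred in 6 cytosolic and no mitochondrial genes, against 0.748% of those tested genes and 1.08% of all genes with a window. The 8 matches are shown 5′ to 3′ along each gene's strand, 30 bases each, with the matching letters in capitals.
AARS: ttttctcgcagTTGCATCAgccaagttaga
CARS: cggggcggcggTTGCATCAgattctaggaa
GARS: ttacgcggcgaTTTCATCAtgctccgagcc
IARS: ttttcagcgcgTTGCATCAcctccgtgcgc
MARS: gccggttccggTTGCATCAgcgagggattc
NARS: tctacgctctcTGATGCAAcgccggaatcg
TARS: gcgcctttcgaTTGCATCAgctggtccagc
YARS2: atccacactgcTGATGGAAaaattaagttt
These stretches lie at chr16:70289675-70289704 (AARS, minus strand), chr11:3057407-3057436 (CARS, minus), chr7:30594834-30594863 (GARS, plus), chr9:92293692-92293721 (IARS, minus), chr12:57488053-57488082 (MARS, plus), chr18:57621804-57621833 (NARS, minus), chr5:33440956-33440985 (TARS, plus) and chr12:32756076-32756105 (YARS2, minus). In IARS the match began 13 bases before the annotated start, in MARS 4 and in CARS 2 bases before it, whereas in TARS and NARS it lay just inside the transcript, beginning at bases 3 and 15. In AARS it began 187 bases, in GARS 33 bases and in YARS2 197 bases before the start. A match describes the letters of the window and does not show that a factor binds there. CARS, GARS and TARS have 2 windows each, with the match in 1 of them.

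MAOA was at 327 CPM (depth-scaled reads, as normalized by the authors) in the C4-2B ENZR control and 219 in its knockdown, with 445 and 140 CPM in LNCaP, so 66.8% and 31.3% of the control level remained. Read totals recovered from the values were 23479051 and 23679869 for C4-2B ENZR and 52550452 and 52012696 for LNCaP. Every ratio was taken within a line, as the log2 of (knockdown CPM + 1)/(control CPM + 1). The median ratio of genes with a mean of at least 10 CPM equalled -0.01 in C4-2B ENZR and 0.13 in LNCaP, which is the level against which LNCaP ratios should be read. With 1 library per group there is no replicate check within a line, and intervals given for single ratios are exact 95% intervals that cover counting error only. Of 9 markers of other cell types, COL1A2 had no reads and DCN, PTPRC, KRT5 and TP63 did not exceed 0.202 CPM in any library, whereas COL1A1 was at 44.4 to 60.9 CPM. CD68, a macrophage marker, measured 9.87 (control) and 11.1 CPM (knockdown) in C4-2B ENZR (log2 ratio 0.15, interval -0.09 to 0.42), with 17.1 and 24.8 CPM in LNCaP (0.51, 0.41 to 0.66), and did not pass (limma adjusted p = 0.190). Summed, these markers reached 59.1 CPM (control) and 67.7 CPM (knockdown) in C4-2B ENZR, against 86.3 and 103 CPM in LNCaP, and their part in the results was not tested. Among 8 prostate epithelial markers FOLH1 was at 731 to 1013 CPM, and KLK3, the prostate-specific antigen gene, was at 3.72 (control) and 6.34 CPM (knockdown) in C4-2B ENZR, against 2391 and 2716 CPM in LNCaP.

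The first comparison asked which synthetase genes differed with MAOA knockdown over both lines. SARS, CARS and GARS, for the cytosolic seryl-, cysteinyl- and glycyl-tRNA synthetases, rose, and no cytosolic gene fell. All 36 genes had enough reads to be tested with limma on the 2 within-line ratios. Of the 20 cytosolic genes 3 rose, against 4.22% of all 13114 genes tested, and none fell, against 1.49%. At an unadjusted p under 0.05, 8 cytosolic genes were higher and 0 lower, against 13.8% and 5.39% of all genes. In edgeR with recomputed scaling 2 rose and 0 fell (against 1.251% and 0.869% of all genes), with 7 higher and 1 lower unadjusted (against 10.3% and 9.39%), and in DESeq2 2 and 0, against 1.01% and 0.686%. With each line centred on its median ratio 4 rose and 0 fell, against 4.41% and 4.14%, and with libraries brought to equal sums 4 rose and 1 fell, against 2.68% and 4.98%.

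SARS was at 201 CPM in the C4-2B ENZR control and 269 in its knockdown, and at 186 and 312 CPM in LNCaP. The knockdown library was the higher of the pair in each line, with a larger gap in LNCaP, where the log2 ratio was 0.74 (interval 0.71 to 0.78) against 0.42 (0.37 to 0.48) in C4-2B ENZR. Its mean ratio was 0.58 (SE 0.13, limma adjusted p = 0.000862).

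CARS was at 73.5 (control) and 112 CPM (knockdown) in C4-2B ENZR, with 113 and 162 CPM in LNCaP. Its ratios were 0.60 (0.52 to 0.69) and 0.51 (0.47 to 0.57), which lie 0.60 and 0.38 above the median of all genes in the line, with a mean of 0.56 (SE 0.12, limma adjusted p = 0.000745). GARS, whose product serves cytosol and mitochondria, was at 240 (control) and 348 CPM (knockdown) in C4-2B ENZR, with 316 and 403 CPM in LNCaP. Its ratio was 0.54 (0.49 to 0.59) in C4-2B ENZR and 0.35 (0.32 to 0.38) in LNCaP, with a mean of 0.44 (SE 0.14, limma adjusted p = 0.0299).

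With edgeR's quasi-likelihood test on recovered reads and recomputed scaling, SARS (adjusted p = 0.0255) and CARS (0.0279) passed and GARS did not (0.0888), and the adjusted p of GARS ranged from 0.00654 to 0.253 over 10 alternatives. The SE and p of limma rest on a spread pooled over genes (276 prior against 1 residual degree of freedom), so they say little about the spread of a gene between the lines.

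AARS, for alanyl-tRNA synthetase, is named because its ratio was next in size, a choice made after its values were seen. It was at 347 (control) and 442 CPM (knockdown) in C4-2B ENZR, with 590 and 845 CPM in LNCaP, with ratios of 0.35 and 0.52. Its mean ratio of 0.43 (SE 0.15) did not pass (limma adjusted p = 0.0615). It passed after centring each line on its median ratio (0.00818) and after bringing libraries to equal sums (0.0222), 2 of 10 alternatives whose adjusted p ranged from 0.00818 to 0.325.

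**Figure D1:**
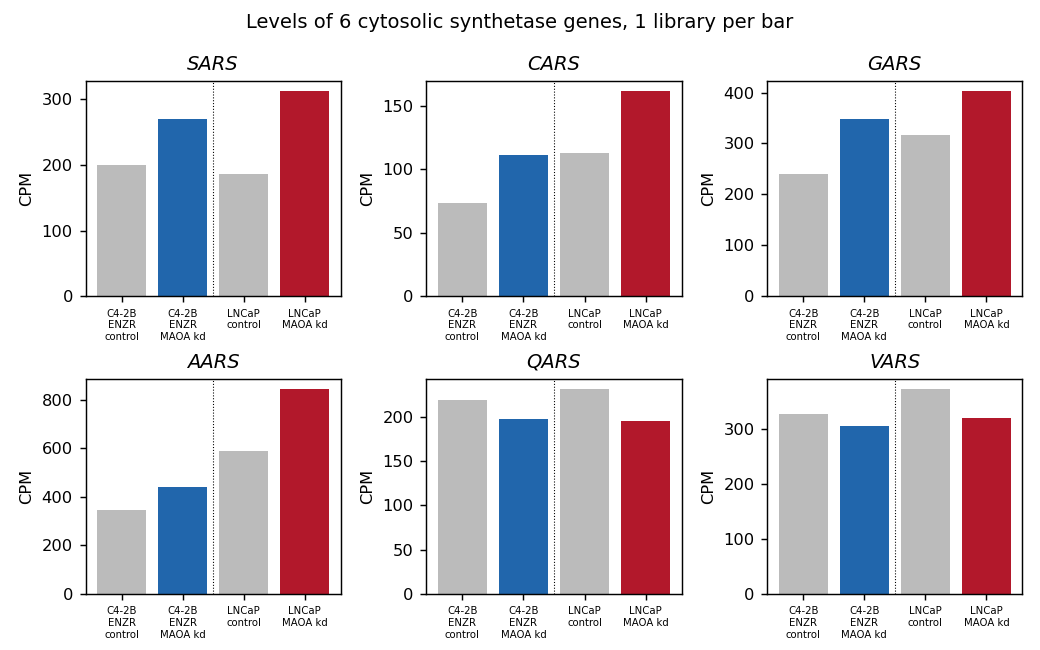
CPM (vertical axis, from 0, a separate scale for each gene) in the control and MAOA knockdown (kd) library of C4-2B ENZR and LNCaP, 1 library per bar with no error bars. SARS, CARS, GARS and AARS are higher in the knockdown library of each line, while QARS, at 219 and 198 and at 232 and 196 CPM, and VARS are lower; levels are to be compared within a line only.

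Of the other 16 cytosolic genes, 8 (WARS, NARS, YARS, TARS, MARS, IARS, EPRS and LARS) had a ratio above 0 in each line, and none of them passed. WARS, the tryptophanyl enzyme gene, was at 150 (control) and 172 CPM (knockdown) in C4-2B ENZR, with 93.2 and 125 CPM in LNCaP (0.20 and 0.42). NARS, for asparagine, had ratios of 0.23 and 0.34, YARS, for tyrosine, 0.24 and 0.31, and TARS, for threonine, 0.26 and 0.28. In these 4 genes the LNCaP ratio was the larger before centring and lay above the line's median of 0.13. Relative to the median of each line, only WARS kept that order (0.20 in C4-2B ENZR and 0.29 in LNCaP). NARS (0.23 and 0.21), YARS (0.24 and 0.17) and TARS (0.26 and 0.15) did not. In MARS, for methionine, the LNCaP ratio was the smaller, at 222 (control) and 286 CPM (knockdown) in C4-2B ENZR (0.37) against 272 and 296 CPM in LNCaP (0.12). IARS, for isoleucine, had ratios of 0.30 and 0.14, and EPRS, a fusion that charges glutamate and proline, 0.25 and 0.11, so that MARS, IARS and EPRS stood clear of the median of all genes in C4-2B ENZR and close to it in LNCaP. LARS, for leucine, had ratios of 0.03 and 0.21. Whether the lines differed could not be tested.

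At the other end, QARS, VARS, FARSB and FARSA had ratios below 0 in each line, and none passed. QARS, for glutamine, was at 219 (control) and 198 CPM (knockdown) in C4-2B ENZR, with 232 and 196 CPM in LNCaP, with ratios of -0.15 (-0.20 to -0.09) and -0.24 (-0.28 to -0.21). Its mean ratio was -0.19 (SE 0.13, limma adjusted p = 0.439), and it passed in 1 of 10 alternatives, with libraries brought to equal sums (adjusted p = 0.0450). VARS, for valine, measured 327 (control) and 306 CPM (knockdown) in C4-2B ENZR, against 372 and 319 CPM in LNCaP (-0.09 and -0.22, limma adjusted p = 0.587). FARSA and FARSB encode the 2 kinds of subunit of phenylalanyl-tRNA synthetase, and their ratios were alike, -0.13 and -0.12 for FARSA and -0.11 and -0.17 for FARSB. FARSB was at 136 (control) and 127 CPM (knockdown) in C4-2B ENZR, with 66.2 and 58.7 CPM in LNCaP (limma adjusted p = 0.601).

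The other 4 cytosolic genes had ratios below 0 in C4-2B ENZR and above 0 in LNCaP. DARS, for aspartate, had ratios of -0.04 and 0.27, RARS, for arginine, -0.05 and 0.04, and HARS, for histidine, -0.12 and 0.03. KARS, which like GARS makes a cytosolic and a mitochondrial enzyme, was at 271 (control) and 239 CPM (knockdown) in C4-2B ENZR (-0.18), with 234 and 256 CPM in LNCaP (0.13). That LNCaP ratio is close to the median of all genes there. Relative to the median of each line, HARS (-0.11 and -0.11), RARS (-0.05 and -0.09) and KARS (-0.17 and -0.01) lay below it in both lines. DARS (-0.04 and 0.13) lay below it in C4-2B ENZR and above it in LNCaP.

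**Figure D2:**
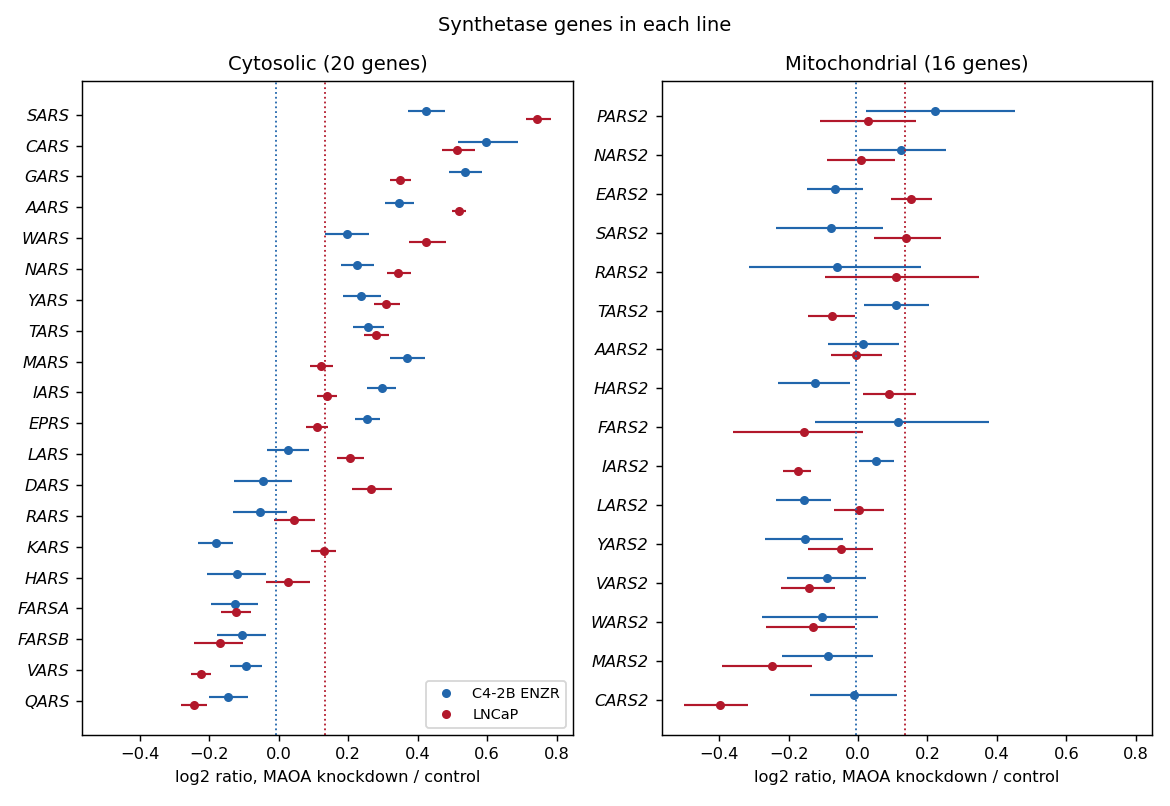
Log2 ratio of MAOA knockdown over control (horizontal axis) for each of the 20 cytosolic and 16 mitochondrial synthetase genes, in order of the mean of the 2 lines. Points are single ratios, bars are 95% counting intervals and dotted lines mark the median ratio of genes with a mean of at least 10 CPM in C4-2B ENZR (-0.01) and LNCaP (0.13); the cytosolic genes spread from -0.24 to 0.74 and the mitochondrial genes from -0.40 to 0.22.

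The 3 genes that rose all encode enzymes outside the multisynthetase complex. Of the 12 cytosolic genes outside it 3 rose, with a median ratio of 0.23 in C4-2B ENZR and 0.33 in LNCaP, and of the 8 inside it (DARS, EPRS, IARS, KARS, LARS, MARS, QARS and RARS) none passed, with medians of -0.01 and 0.13, the same to 2 decimals as those of all genes. This grouping was made after the values were seen, and the difference was not tested. Across all genes tested in limma 4.22% rose and 1.49% fell. None of the 3 scaffold genes passed in limma, and none had an unadjusted p under 0.05 (1 was lower at that level in edgeR with recomputed scaling, where none passed either). AIMP1 was at 46.3 (control) and 44.5 CPM (knockdown) in C4-2B ENZR, with 38.1 and 45.6 CPM in LNCaP (-0.06 and 0.25). AIMP2 was at 84.9 and 76.8 and at 45.3 and 38.9 CPM (-0.14 and -0.21), and EEF1E1 at 31.5 and 28.4 and at 18.0 and 15.8 CPM (-0.14 and -0.18). The synthetases also fall into 2 structural classes with unrelated catalytic folds. Of 9 cytosolic genes of class I 1 rose (CARS), and of 10 of class II 2 rose (GARS and SARS), with EPRS holding a domain of each class.

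None of the 16 mitochondrial genes passed in either direction in limma, where 4.22% of all genes rose and 1.49% fell. With shares so low, none of 16 passing is near the level of all genes. Their adjusted p in limma ran from 0.409 to 0.990. None had an unadjusted p under 0.05, against 13.8% of all genes higher and 5.39% lower. None passed in edgeR or DESeq2 either. The highest mean ratios were those of PARS2, NARS2 and EARS2, for proline, asparagine and glutamate. PARS2 was at 13.6 (control) and 16.1 CPM (knockdown) in C4-2B ENZR, with 16.1 and 16.4 CPM in LNCaP (0.22 and 0.03), NARS2 at 40.4 and 44.2 and at 31.8 and 32.0 CPM (0.12 and 0.01), and EARS2 at 105 and 101 and at 83.3 and 92.7 CPM (-0.07 and 0.15). No gene of the set lay above the median of all genes in both lines, and 8 lay below it in both.

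The lowest mean ratios were those of CARS2, MARS2 and WARS2. CARS2, the mitochondrial cysteinyl enzyme gene, was at 41.8 (control) and 41.4 CPM (knockdown) in C4-2B ENZR, with 42.6 and 32.0 CPM in LNCaP. The C4-2B ENZR pair was level (-0.01, interval -0.14 to 0.11), while the LNCaP knockdown was the lower of its pair (-0.40, -0.50 to -0.32). MARS2 was at 39.6 and 37.3 and at 20.6 and 17.2 CPM (-0.09 and -0.25), and WARS2 at 24.8 and 23.0 and at 20.1 and 18.3 CPM (-0.11 and -0.13). The remaining 10 genes (AARS2, FARS2, HARS2, IARS2, LARS2, RARS2, SARS2, TARS2, VARS2 and YARS2) had ratios between -0.16 and 0.12 in C4-2B ENZR and between -0.17 and 0.14 in LNCaP. The fewest control reads were 256 for FARS2 in C4-2B ENZR, where its interval was -0.12 to 0.38, and 350 for RARS2 in LNCaP, where its interval was -0.09 to 0.35, and both include 0.

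The second comparison set the cytosolic genes against the mitochondrial ones within the same libraries. In C4-2B ENZR the median ratio was 0.21 for cytosolic and -0.06 for mitochondrial genes, a difference of 0.27, and in LNCaP it was 0.17 and -0.03, a difference of 0.20. The summed level of the cytosolic genes was 4396 CPM in the C4-2B ENZR control and 4992 in the knockdown, with 4365 and 5114 CPM in LNCaP. The summed level of the mitochondrial genes was 984 and 970 CPM in C4-2B ENZR, with 796 and 763 CPM in LNCaP, so the cytosolic sum was the higher in the knockdown of each line and the mitochondrial sum the lower.

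The 2 lines reached this difference from unlike positions relative to all genes. In C4-2B ENZR the cytosolic median was 0.22 above and the mitochondrial median 0.06 below the median of genes with at least 10 CPM. In LNCaP the cytosolic median was 0.04 above and the mitochondrial median 0.16 below it. In other terms, 87.4% of such genes lay below the cytosolic median in C4-2B ENZR and 56.1% in LNCaP, and 36.7% and 26.4% lay below the mitochondrial median. The size of the difference also depended on its measure. With means in place of medians it was 0.16 in C4-2B ENZR, and among genes in the range of levels common to both sets it was 0.02 in C4-2B ENZR (13 cytosolic and 3 mitochondrial genes) and 0.12 in LNCaP (7 and 3 genes).

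Past 1.5-fold within a line there was 1 cytosolic gene higher in C4-2B ENZR (CARS), against 1.59% of 13810 genes with a mean of at least 1 CPM, and 1 in LNCaP (SARS), against 4.98% of 13787. No synthetase gene was 1.5-fold lower, against 0.963% and 1.57%. At a margin of at least 25%, 5 of the 20 cytosolic genes were higher in C4-2B ENZR (AARS, CARS, GARS, MARS and SARS), against 7.78% of genes, and 6 in LNCaP (AARS, CARS, GARS, NARS, SARS and WARS), against 21.3%. The mitochondrial set had 0 higher by that margin in either line. By at least 20%, 1 was lower in LNCaP (CARS2), against 6.93% of genes, and 0 in C4-2B ENZR, against 5.45%.

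For 16 pairs of genes that serve the same amino acid in the 2 compartments, the cytosolic gene had the higher ratio in 14 pairs in C4-2B ENZR, in 12 in LNCaP and in 11 in both. EPRS stands in 2 of the pairs. Some gaps in these counts were small. In C4-2B ENZR they were 0.005 for histidine, 0.008 for arginine and 0.03 for proline, where the counting intervals of the paired genes overlapped. In LNCaP histidine (-0.06) and arginine (-0.07) went the other way. The gap was widest for cysteine, where CARS exceeded CARS2 by 0.61 in C4-2B ENZR and 0.91 in LNCaP, then for serine (0.50 and 0.61). Alanine (0.33 and 0.52), tryptophan (0.30 and 0.55), methionine (0.45 and 0.37) and tyrosine (0.39 and 0.36) followed. The serine pair, which is among the 11, rests on SARS2. Its value is uncertain, since 74.0% of its transcript stretches of 50 bases also occur in other genes. For valine the mitochondrial gene had the higher ratio in both lines, by 0.08 in LNCaP and by less than the counting intervals of either gene in C4-2B ENZR. The median gap over the pairs came to 0.21 in C4-2B ENZR and to 0.32 in LNCaP.

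**Figure D3:**
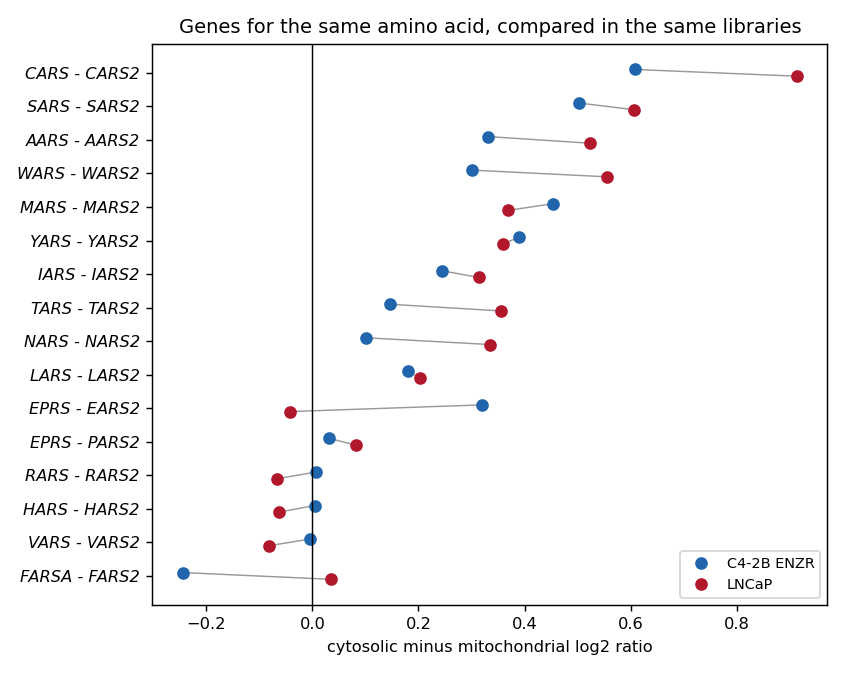
Difference between the log2 ratios of the cytosolic and the mitochondrial gene for the same amino acid (horizontal axis) in C4-2B ENZR and LNCaP, 1 point per pair and line, in order of the mean. Points to the right of 0 have the higher ratio in the cytosolic gene, as in 11 of 16 pairs in both lines; CARS and CARS2 are farthest apart.

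The order of the ratios was more alike between the lines among cytosolic than among mitochondrial genes, a difference that was not tested. Over the 20 cytosolic genes, C4-2B ENZR and LNCaP ratios gave a Pearson r of 0.756 (Spearman rho 0.740), over the 16 mitochondrial genes of -0.090 (-0.065), and across all 13114 genes of 0.401 (0.417). Genes are not independent replicates, and the mitochondrial genes span a narrower range of ratios and have fewer reads. Of the cytosolic genes 10 lay above and 7 below the median of all genes in both lines.

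**Figure D4:**
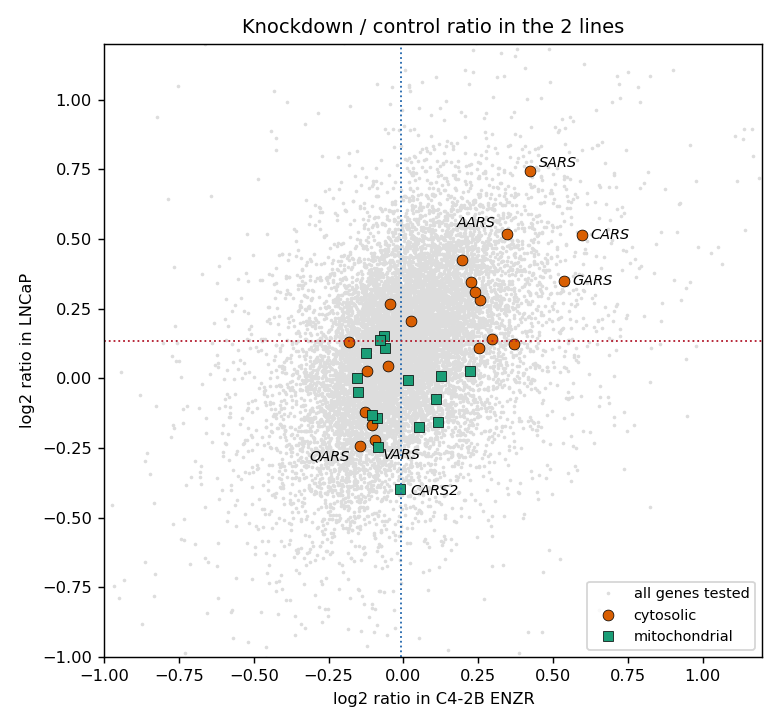
Log2 ratio of MAOA knockdown over control in C4-2B ENZR (horizontal axis) and LNCaP (vertical axis) for cytosolic and mitochondrial synthetase genes over all genes tested (grey; genes beyond the axes are not drawn). Dotted lines mark the median of genes with at least 10 CPM in each line; SARS, CARS, GARS and AARS lie at the upper right, QARS and VARS at the lower left and CARS2 lowest.

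The cytosolic genes were then read against the response element shown above. The 7 genes with a match (AARS, CARS, GARS, IARS, MARS, NARS and TARS) had ratios of 0.23 to 0.60 in C4-2B ENZR, with a median of 0.35, and of 0.12 to 0.52 in LNCaP, with a median of 0.34. The 9 genes without a match had ratios of -0.18 to 0.42 in C4-2B ENZR (median -0.11) and of -0.24 to 0.74 in LNCaP (median 0.04). The groups overlapped in both lines. SARS, which had the highest mean ratio of all, has no match in either of its 2 windows, and without a match EPRS in C4-2B ENZR (0.25) and KARS (0.13) and WARS (0.42) in LNCaP also lay within the range of the genes with one. The element was chosen after the ratios had been seen, so this is a description, and no test was made. YARS2, the mitochondrial gene with a match (TGATGGAA), had ratios of -0.15 and -0.05.

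**Figure D5:**
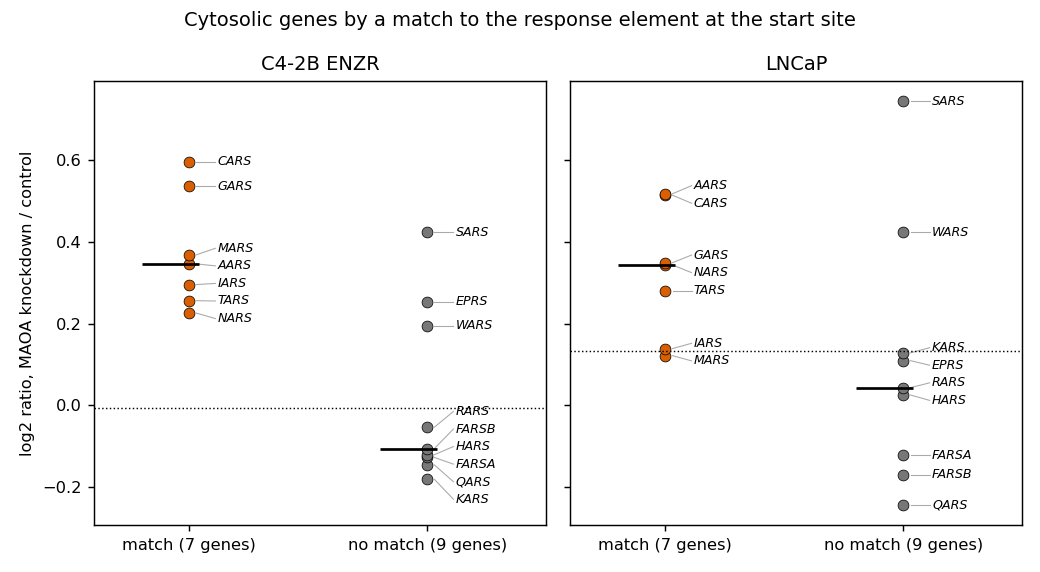
Log2 ratio of MAOA knockdown over control (vertical axis) for the 16 cytosolic synthetase genes with a RefSeq start-site window, split by a match to the response element, in C4-2B ENZR and LNCaP. Each point is 1 gene, short bars are group medians and the dotted line is the median of genes with at least 10 CPM; all 7 genes with a match are above that line in C4-2B ENZR, while in LNCaP MARS (0.12) is just below it and IARS (0.14) level with it, and SARS is the highest gene without a match.

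Genes that act next to the synthetases were read from lists of known members. These lists were chosen with earlier results of these data known, so counts over them are a description and not a test. Of 18 genes of the amino acid response 14 rose and none fell in limma, against 4.22% and 1.49% of all genes. In edgeR with recomputed scaling 11 rose (against 1.251%), in DESeq2 9 (against 1.01%) and in limma with no filter on low values 3. Median ratios of the list were 0.56 in C4-2B ENZR and 0.66 in LNCaP. ATF4 was at 431 (control) and 625 CPM (knockdown) in C4-2B ENZR, with 453 and 732 CPM in LNCaP, and it rose (0.61, SE 0.15, limma adjusted p = 0.00310). CHAC1, a glutathione-degrading enzyme gene, DDIT3, the stress factor CHOP, ASNS, which makes asparagine, and TRIB3 had the smallest p, with mean ratios of 1.19, 1.13, 0.98 and 0.89. These exceed the 0.58 of SARS. DDIT3, with ratios of 0.56 (C4-2B ENZR) and 1.71 (LNCaP), did not pass in DESeq2 (adjusted p = 0.337). ALDH18A1, for proline synthesis, had the smallest ratio of the list (0.09) and did not pass.

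Of 11 other genes of tRNA charging none passed in limma, where 4.22% of all genes rose and 1.49% fell. At an unadjusted p under 0.05 in limma 1 was higher and 2 lower, against 13.8% and 5.39% of all genes. None of the 11 passed in edgeR. With each line centred on its median ratio 0 rose and 1 fell, against 4.41% and 4.14% of all genes. With libraries brought to equal sums 0 rose and 1 fell, against 2.68% and 4.98%. XPOT, the tRNA exporter, was at 411 (control) and 491 CPM (knockdown) in C4-2B ENZR, with 358 and 472 CPM in LNCaP (0.26 and 0.40). The lowest mean ratio was that of GATB, listed under its older symbol PET112, which works with QRSL1 and GATC to make mitochondrial glutaminyl-tRNA (-0.19 and -0.43). QRSL1 had ratios of -0.23 and 0.17 and GATC of -0.05 and 0.13. Relative to the median of all genes in LNCaP, QRSL1 (0.04) and GATC (-0.003) were near that level, whereas GATB was at -0.56.

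Charged tRNAs are carried to the ribosome by elongation factors, and here too the cytosolic and mitochondrial genes can be set side by side. None of 7 cytosolic and none of 4 mitochondrial factors passed in limma, where 4.22% of all genes rose and 1.49% fell. At an unadjusted p under 0.05 in limma 2 and 0 were higher, against 13.8% of all genes. In edgeR with recomputed scaling none passed and 5 and 0 were higher unadjusted, against 10.3%. In DESeq2 1 (EEF2) and 0 rose, against 1.01%. After centring, EEF1A2 and EEF2 rose. Median ratios were 0.23 in C4-2B ENZR and 0.50 in LNCaP for the cytosolic factors, and 0.00 and 0.02 for the mitochondrial factors. EEF2, the translocation factor, was at 4398 (control) and 5552 CPM (knockdown) in C4-2B ENZR, with 7648 and 12037 CPM in LNCaP (0.34 and 0.65). EIF5A was the cytosolic factor with a ratio below 0 in both lines (-0.08 and -0.25). TUFM, which delivers charged tRNA in mitochondria, had ratios of 0.04 and 0.18.

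Reads of 50 nt could be confused between genes where sequence is shared. Of the 50-mers in GENCODE transcripts of SARS2, 74.0% also occur elsewhere, in AC011455.2, a clone-named gene, or in MRPS12, so its value is uncertain. In the other 35 genes at most 9.18% (YARS, with S100PBP) are shared. SARS and AARS shared none, CARS 2.33% and GARS 1.92%. MARS shared 0.584% with DDIT3. Whether counting used strand is likewise unstated.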

How the data were processed

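Bowtie2 2.1.0, RSEM 1.2.15, edgeR and build hg19 are listed per the submitters' processing notes. Annotation, filters and strand of counting: not stated in labels or headers. For each line the authors deposited 1 table of CPM scaled by TMM (trimmed mean of M-values). Deposited LNCaP values count as signal, called CPM here, since the knockdown column sums to 1064501. The deposited scaling equals a recomputed TMM in C4-2B ENZR (log2 worth of 1 read, knockdown over control, 0.01) but not in LNCaP (0.22 against 0.10). All values (100%) were whole multiples of 1 read within 0.01 read, so reads were recovered. At these depths 3 reads equal 0.0529 to 0.122 CPM.

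Within-line log2 ratios with a pseudocount of 1 were tested with limma 3.58.1 (R 4.3.3; line as a block, trended prior, Benjamini-Hochberg over 13114 genes with a mean of at least 1 CPM in both tables, threshold 0.05), and the step was tested on simulated data. "Rose" and "fell" mean passing it. Alternatives included edgeR 4.0.16 and DESeq2 1.42.0 on recovered reads. No label shows that groups hold separate cultures. The p-values rest on how far the ratios of the 2 lines disagree, pooled over genes. With 1 library per group they cannot measure the spread between cultures of a group. Every synthetase gene is accounted for; values in all libraries are given for those that passed and the 3 highest and 3 lowest per compartment. Of other lists, up to 4 passing genes by smallest p and the largest opposite ratio were named, and ATF4, MAOA and the scaffolds always; further genes of those lists were named after their values were seen. Members and lists were chosen with earlier results of these data known, and the search for the response element was added after seeing the data. Values of 2 genes on the marker and tRNA charging lists are not reported here.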

Additional observations from a re-analysis of the deposited data

Results flagged for a closer look

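IARS2, for the mitochondrial isoleucyl enzyme, and TARS2, for the threonyl enzyme, had ratios of opposite sign in the 2 lines, with counting intervals that excluded 0 and the median of all genes in each line. IARS2 had a log2 ratio of 0.05 in C4-2B ENZR (253 and 262 CPM) and -0.174 in LNCaP (205 and 182 CPM). TARS2 had one of 0.11 in C4-2B ENZR (71.0 and 76.7 CPM) and -0.0755 in LNCaP (70.6 and 67.0 CPM). The difference between the lines was not tested, since 1 library per group leaves no residual degrees of freedom for it. The lower bounds in C4-2B ENZR (0.0015 for IARS2 and 0.0166 for TARS2) are close to 0, as is the upper bound of TARS2 in LNCaP (-0.0097).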

How the results depend on the processing

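Every fit over both lines was paired by line, and the labels give no replicate numbers. The count of 3 cytosolic genes that rose stayed between 2 and 4 under every alternative but the one with no filter on low values, where it was 0 (CARS, GARS and SARS at adjusted p = 0.121, 0.253 and 0.159); QARS, 1 gene, fell with libraries rescaled to equal sums. No mitochondrial gene passed under any alternative run. GARS also lost its call in edgeR with recomputed scaling, in DESeq2 (adjusted p = 0.0947) and in limma without a trend (0.0746), and CARS and SARS passed in 9 of 10 alternatives. Over all genes, against 554 that rose and 195 that fell, there were 14 and 6 with no filter, 351 and 653 after rescaling, 164 and 114 in edgeR with recomputed scaling, and 132 and 90 in DESeq2; 543 fell after centring and 326 rose in limma without a trend. EARS2 changed sign after centring (-0.0205), rescaling (-0.0664), in edgeR with recomputed scaling (-0.0147) and in DESeq2 (-0.0147), and NARS2 after rescaling (-0.0409).

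The difference between cytosolic and mitochondrial medians kept its sign under every alternative run. For C4-2B ENZR it was 0.16 with means, 0.20 from summed CPM, 0.0221 in the shared range of levels and 0.21 over pairs. For LNCaP it was 0.29 from summed CPM, 0.12 in the shared range and 0.32 over pairs, and the mean of the lines in the shared range was 0.0706. The counts past 1.5-fold changed as follows. In C4-2B ENZR the cytosolic count was 0 with a pseudocount of 5 or after rescaling, and 5 at a margin of 25%. In LNCaP it was 0 after rescaling and 6 at a margin of 25%, and 1 mitochondrial gene was lower after rescaling or by at least 20%. The cause of these changes was not tested.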

Other observations

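HARS and HARS2, the histidyl enzyme genes of the cytosol and of mitochondria, are divergent neighbours whose RefSeq start windows (chr5:140691321-140691620, minus strand, and chr5:140691205-140691504, plus strand, GRCh38.p14) overlap by 184 bases. Ratios of HARS and HARS2 were close within a line: in C4-2B ENZR -0.12 and -0.13, in LNCaP 0.03 and 0.09. Of the 50-mers of HARS 7.83% also occur in other genes, HARS2 among them. Whether the overlapping windows or shared reads bear on these ratios was not tested. HARS was at 94.4 (control) and 86.8 CPM (knockdown) in C4-2B ENZR, with 74.3 and 75.7 CPM in LNCaP, and HARS2 at 64.6 and 59.2 CPM, with 52.6 and 56.0 CPM in LNCaP. TARSL2, a further threonyl synthetase gene, was at 12.6 (control) and 10.2 CPM (knockdown) in C4-2B ENZR (-0.28), with 5.36 and 8.41 CPM in LNCaP (0.57). The difference between the lines was not tested.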
